A study of Drosophila melanogaster with 3 samples.

Results

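The ribosomal RNAs other than 5S were examined in small RNA from the heads of adult male Drosophila melanogaster, comparing flies whose neurons expressed Sxl-RAC with flies whose neurons expressed mCherry. The genes are those annotated as rRNA, with a symbol that does not start with 5SrRNA and a mean count above 0, and 7 of the 3546 genes in the authors' deposited table met that rule. They are 1 gene of the very short 2S rRNA (2SrRNA:CR45864), 4 genes of the long ribosomal precursor (pre-rRNA:CR45856, pre-rRNA:CR45846, pre-rRNA:CR45847 and pre-rRNA:CR45845) and both rRNAs of the mitochondrion (mt:lrRNA and mt:srRNA). Another 12 genes of 18S, 28S, 5.8S and 2S rRNA were listed at 0, so no gene of mature 18S, 28S or 5.8S rRNA contributed a value.

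Sex-lethal is an RNA-binding protein that controls sex determination in Drosophila, and the title of the series links it to RNA polymerase III and tRNA in male neurons. In the Sxl-RAC flies nSyb-GAL4, a driver active in neurons, turned on UAS-SxlRAC, with tub-GAL80ts, a temperature-sensitive repressor of GAL4, in the same stock. The control flies carried nSyb-GAL4 with UAS-mCherry at attP2, and the label does not repeat tub-GAL80ts for them. The flies of the labelled samples, all of them Sxl-RAC, were raised at 18 °C and kept at 29 °C for 4 days after eclosion. No control sample is labelled, so matched temperatures of the control flies are not documented per sample. Heads hold muscle, fat, glia and other cells beside the neurons in which the driver acts, so a value from a whole head is a mixture, in which fewer cells of a type and less RNA per cell cannot be told apart. The labels list 3 Sxl-RAC samples and give the number of animals for none. They name the extracted molecule polyA RNA, while the library kit they name is one for small RNA.

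The authors' comparison held 6 libraries, 3 of each arm. A gene with a single read takes a mean count that is fixed by the library holding the read, and 6 such values, with 3 fold changes above 0 and 3 below, were found both among microRNAs and among the other noncoding RNAs. The largest of these values was 2.37 times the smallest among microRNAs and 2.88 times among the other noncoding RNAs, which is the range of the size factors of each class. Sxl has no row in the table, so the direction of the comparison could not be checked on it and is that of the table's name. No values per library are given, so each gene has 1 mean count over all libraries, 1 fold change and 1 standard error. Where nothing states that the samples came from separate crosses, p-values measure the spread between these samples only. Of the cell type markers looked at, mir-1 of muscle had a mean normalised count of 4750 in the authors' deposited table and mir-124 of neurons one of 12.9. On the scale of the microRNA class mir-1 was called lower, at -0.46 ± 0.08 (estimate ± standard error throughout; DESeq2 adjusted p 1.41e-06), and mir-124 was at -0.12 ± 0.59 with no adjusted p. The part of a different share of muscle in the rRNA values was not tested.

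In the fly nucleus, RNA polymerase I transcribes the ribosomal genes as a long precursor from repeated units on the X and Y chromosomes. Spacers are cut away to release 18S rRNA for the small ribosomal subunit and 28S, 5.8S and 2S rRNA for the large one, and 2S rRNA, a piece that flies and their relatives split off, pairs with the other large-subunit RNAs. At 30 bases in the annotation, 2S rRNA is close in size to the regulatory small RNAs and is therefore a usual bulk component of fly small RNA libraries. The 5S rRNA is separate, made by RNA polymerase III from a gene cluster of its own, and the mitochondrial rRNAs are made by the polymerase of that organelle. Full-length precursors and large rRNAs are far longer than a small RNA insert, so reads on them come from fragments.

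Within the rRNA class, position in the annotation separates genes that had reads from those that had none. All 12 genes listed at 0 lie wholly inside a pre-rRNA gene on the same strand: 3 of 3 genes of 18S, 2 of 2 of 28S, 4 of 4 of 5.8S and 3 of 4 of 2S. None of the 7 genes with reads lies inside another pre-rRNA gene. The 2S gene with reads, 2SrRNA:CR45864 (chromosome X, 23291700 to 23291729, build BDGP6.54, plus strand), overlaps no other annotated gene. It follows 28 bases after the pseudogene 5.8SrRNA-Psi:CR45863, the same spacing as between 5.8S and 2S in the unit of pre-rRNA:CR45845. Neither mt:lrRNA nor mt:srRNA overlaps another gene. How the authors' counting treated reads that fall in more than one gene is not given in the sources used here, and its part in the pattern was not tested. A mean of 0 is therefore a listed value and no measure of the absence of the RNA.

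**Figure D1:**
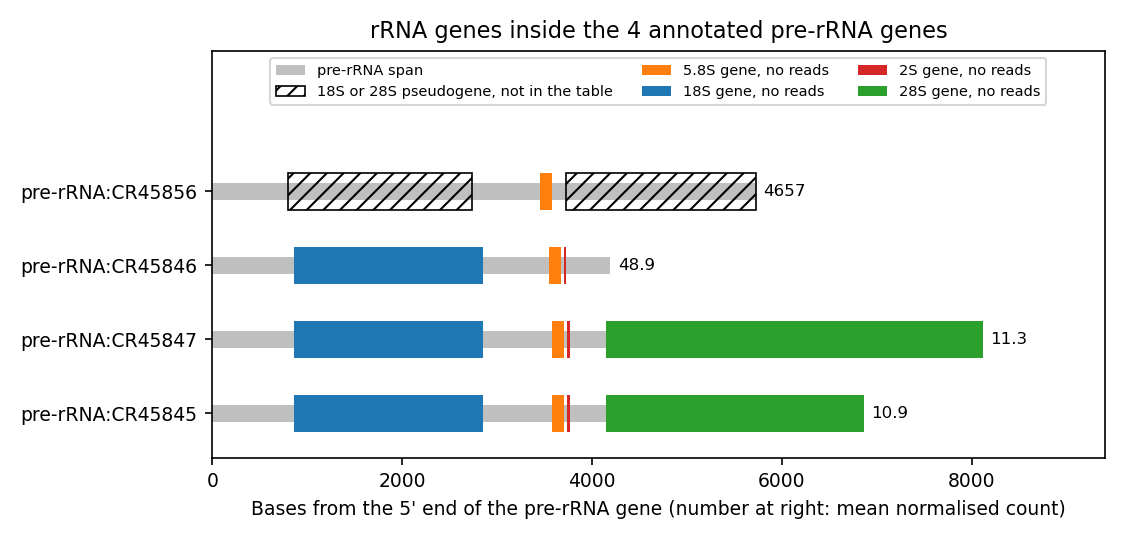
Position of annotated rRNA genes (colours) and pseudogenes (hatched) inside the 4 pre-rRNA genes, in bases from the 5′ end of each, with the mean normalised count of the pre-rRNA gene at the right. The coloured genes are all at 0, and the count runs from 10.9 for pre-rRNA:CR45845 to 4657 for pre-rRNA:CR45856.

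The 4 pre-rRNA genes do not cover the same kinds of sequence. In pre-rRNA:CR45845 (6863 bases) and pre-rRNA:CR45847 (8118 bases), 2000 bases lie outside any listed mature gene: 861 before 18S, 726 between 18S and 5.8S, 28 between 5.8S and 2S, and 385 between 2S and 28S. These are the external and internal transcribed spacers, the parts that processing removes. In pre-rRNA:CR45846 (4191 bases) 2043 bases lie outside, and the last 460 of them run from 2S to the end of the gene, where no 28S gene is annotated. In pre-rRNA:CR45856 (chromosome X, 23278007 to 23283731, minus strand, 5725 bases) the single listed gene inside is that of 5.8S, and 5602 bases lie outside it. Of the bases of that precursor, 3938 belong to the pseudogenes 18SrRNA-Psi:CR45861 and 28SrRNA-Psi:CR45862. None of the 23 annotated rRNA pseudogenes is a row of the table.

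Levels differed by orders of magnitude. The mean normalised count, that is read counts divided by the authors' size factors and averaged over all libraries, was 2160512 for 2SrRNA:CR45864 in the authors' deposited table. The other 6 genes together had 5271. Among the precursors it was 4657 for pre-rRNA:CR45856, 48.9 for pre-rRNA:CR45846, 11.3 for pre-rRNA:CR45847 and 10.9 for pre-rRNA:CR45845, and among the mitochondrial genes 283 for mt:srRNA and 260 for mt:lrRNA. Per 100 bases outside listed mature genes, the mean count was 83.1 in pre-rRNA:CR45856, 2.39 in pre-rRNA:CR45846, 0.564 in pre-rRNA:CR45847 and 0.543 in pre-rRNA:CR45845. That takes all counted reads to lie outside those mature genes, which was not tested. Per 100 bases of the whole gene, the values were 81.3, 1.17, 0.139 and 0.158 in the same order. The last 2, whose uncovered bases are spacer, had nearly the same level, and the precursor that spans the pseudogenes had by far the highest. Per 100 bases of the whole gene, mt:srRNA had a mean count of 36.0 and mt:lrRNA one of 19.6. Ribosomal units are known as repeats of near-identical copies, whose sequences were not compared here, so the level of a single precursor gene is to be taken as uncertain.

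Of the 7 genes, 1 was called, that is had an adjusted p under 0.05 in the authors' DESeq2 Wald test. The called gene was pre-rRNA:CR45856, lower in Sxl-RAC heads. Over the 103 rRNA genes tested, 0.971% were called, all of it this gene, and over the 1128 genes of the table with an adjusted p the share was 5.14% in either direction and 1.77% lower. At an unadjusted p under 0.05, 4 of the 7 genes passed, all lower, against 6.8% of the 103 rRNA genes in either direction and 5.83% lower. The 7 genes are themselves part of these backgrounds. Without them, 2 of the 96 5S rRNA genes (2.08%) were lower at that threshold. In sign, 6 of the 7 genes were below 0, with a median log2 fold change of -0.73, while 48 of the 96 5S genes were below 0, with a median of -0.01. The 5S genes are 96 of the 103 rRNA genes and so largely set the scale of the class. Their median near 0 is therefore no independent reference. Copies of a gene may share reads, which was not tested for the 5S or the precursor genes. The counts of genes given here are therefore not counts of separate observations.

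**Figure D2:**
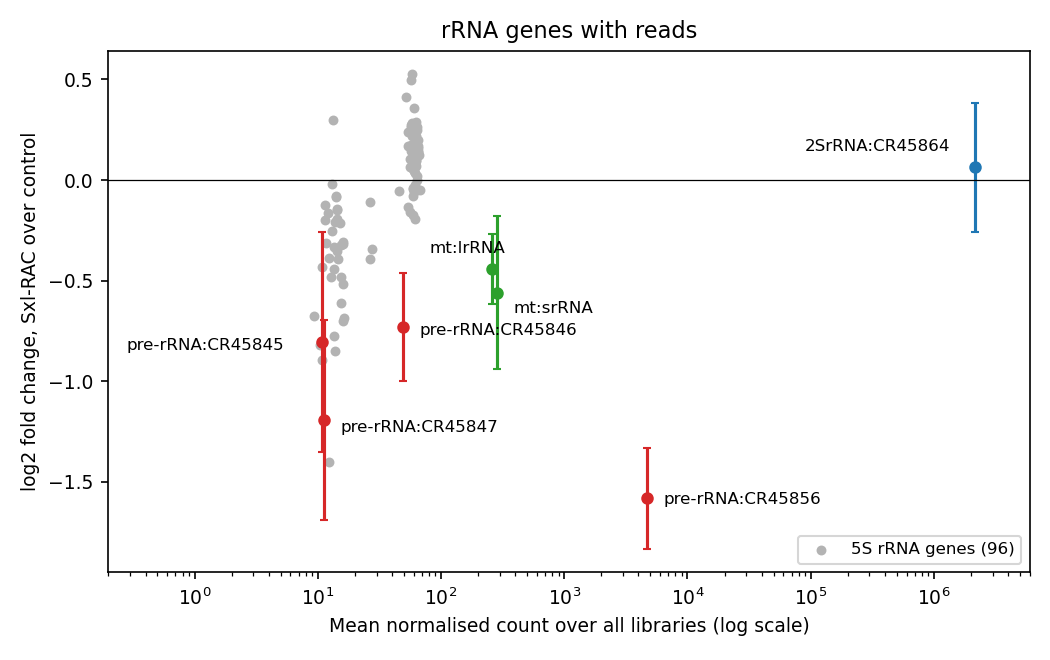
Log2 fold change of Sxl-RAC over control (vertical axis) against the mean normalised count on a log scale (horizontal axis) for the 103 rRNA genes with reads. Bars are the authors' standard errors, shown for the 7 genes other than 5S. The precursor pre-rRNA:CR45856 sits lowest at -1.58, 2SrRNA:CR45864 sits at the far right near 0, and the 5S genes form a group of low counts that is mostly below 0 and a group of higher counts that is mostly above.

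The authors' fold changes hold relative to the rRNA genes as a class. Their adjusted p-values for rRNA equal a Benjamini-Hochberg adjustment over the 103 rRNA genes alone to within 0.132%. The values of single reads differ between classes, 0.0912 for the smallest among microRNAs and 0.0841 among other noncoding RNAs, so size factors differed between classes too. In the rRNA class 96 of 103 genes are 5S copies, and size factors are set by the typical gene of a class. A shift common to all rRNA cannot be seen in these values. A change of the 5S genes alone would move the other rRNA genes the opposite way on this scale. In a single fold change it cannot be told apart from a change of those other genes. A fold change of rRNA also cannot be set against one of tRNA, snoRNA or microRNA.

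The count of the gene pre-rRNA:CR45856 was lower by 2.99-fold in Sxl-RAC heads. With 3 libraries per arm, its mean count and fold change imply 6982 normalised counts in a control library and 2332 in a Sxl-RAC library, and the order of single libraries cannot be seen. The authors' deposited table gives it a log2 fold change of -1.58 ± 0.25 (DESeq2 adjusted p 2.96e-08). The 95% interval from that error ran from -2.07 to -1.09. On the scale of the rRNA class, the level in Sxl-RAC heads was 33.4% of control (23.8% to 47.0%). The fold change was the lowest of the 103 rRNA genes, and none of the 96 5S genes was lower. Of the 5725 bases of this gene, 3938 belong to rRNA pseudogenes, and where in the gene its reads fell is not given. Whether the reads came from precursor or from fragments of mature rRNA of similar sequence was not tested. The lower value is therefore one of the gene as annotated and no measure of precursor rRNA.

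The other precursors were lower in value but were not called. For pre-rRNA:CR45847 (rDNA unit sequence, 66807 to 74924, plus strand) the deposited log2 fold change was -1.19 ± 0.50 (DESeq2 adjusted p 0.348), from an implied 15.7 normalised counts in control to 6.87 in Sxl-RAC heads. For pre-rRNA:CR45845 (42623 to 49485 of the same sequence) it was -0.81 ± 0.55 (adjusted p 0.872), from 13.8 to 7.91. For pre-rRNA:CR45846 (55104 to 59294) it was -0.73 ± 0.27 (adjusted p 0.229), from 61.0 to 36.8. The 95% intervals left out 0 for pre-rRNA:CR45847 (-2.17 to -0.21) and pre-rRNA:CR45846 (-1.26 to -0.20) before any adjustment, and held it for pre-rRNA:CR45845 (-1.87 to 0.26). Counting error alone would give standard errors of 0.38, 0.37 and 0.17 for pre-rRNA:CR45847, pre-rRNA:CR45845 and pre-rRNA:CR45846, compared with 0.50, 0.55 and 0.27 in the table.

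Many 5S genes with few counts were below 0 as well. Of 35 5S genes with a mean count under 20, 34 were below 0, with a median of -0.33, a lowest value of -1.40 and a highest of 0.30. Among the 61 with more counts 14 were below 0, with a median of 0.12. Whether 5S copies share reads was not tested, so these are counts of copies and not of separate observations. Of the 35, 1 was lower than pre-rRNA:CR45847 and 4 were lower than pre-rRNA:CR45845, the precursors with as few counts. The part of low counts in the values of those precursors was not tested. The called precursor had 4657 counts and no 5S gene more than 67.5, so no 5S gene was near its level. The part of the count level in the value of that precursor was not tested.

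The precursors were then compared with each other, with their errors combined as though independent. Of 6 pairs, the 95% interval of the difference left out 0 in 1: pre-rRNA:CR45856 was below pre-rRNA:CR45846 by a log2 difference of -0.85 (-1.57 to -0.13). For pre-rRNA:CR45856 minus pre-rRNA:CR45847 the difference was -0.39 (-1.48 to 0.71) and minus pre-rRNA:CR45845 it was -0.78 (-1.95 to 0.40). The remaining precursors differed from each other by 0.46 or less, with intervals reaching from -1.84 to 1.57, too wide to show that they moved alike. The genes were measured in the same libraries, so the true errors of these differences may be smaller or larger.

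For 2S rRNA, a component of the large ribosomal subunit, the 1 gene with reads, 2SrRNA:CR45864, showed no detectable difference. Its deposited log2 fold change was 0.06 ± 0.32 (DESeq2 adjusted p 0.910), from an implied 2113332 normalised counts in a control library to 2207692 in a Sxl-RAC library. The 95% interval, -0.57 to 0.69, allows a level from 67.5% to 162% of control. The value is one of the gene as annotated, since the other 2S genes are listed at 0 and the counting of shared reads is not given. Counting error alone would give a standard error of 0.0008, and the authors' error was 401 times that. The same ratio was 12.6 for pre-rRNA:CR45856, 5.37 for mt:srRNA, 2.34 for mt:lrRNA and from 1.31 to 1.55 for the other precursors.

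Relative to 2S, pre-rRNA:CR45856 was lower by a log2 difference of -1.65 ± 0.41 (combined standard error; 95% interval -2.44 to -0.85). This difference does not depend on how the rRNA class was scaled. For pre-rRNA:CR45847 it was -1.26 (-2.42 to -0.09), but against mt:lrRNA in place of 2S it was -0.75 (-1.78 to 0.29). The remaining precursor intervals against 2S held 0, for pre-rRNA:CR45845 at -0.87 (-2.11 to 0.37) and for pre-rRNA:CR45846 at -0.79 (-1.62 to 0.03). In all, 17 differences between the 7 genes were computed, with no adjustment for their number, and 4 intervals left out 0, of which 3 involve pre-rRNA:CR45856.

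**Figure D3:**
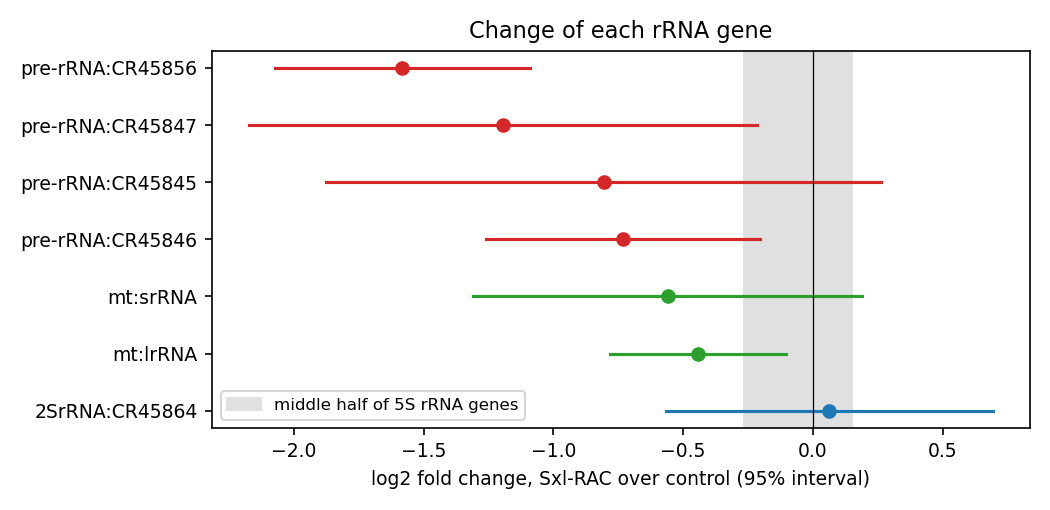
Log2 fold change of Sxl-RAC over control for each of the 7 genes (points) with the 95% interval from the authors' standard error (lines). The grey band spans the first to the third quartile of the 96 5S genes, from -0.27 to 0.15, and the interval of pre-rRNA:CR45856, -2.07 to -1.09, lies wholly below it.

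Both mitochondrial rRNAs were below 0 without being called. They are the RNA cores of the mitochondrial ribosome, mt:lrRNA of its large and mt:srRNA of its small subunit. The deposited log2 fold change was -0.44 ± 0.17 for mt:lrRNA (mitochondrial genome, 12735 to 14058, minus strand; DESeq2 adjusted p 0.269), from an implied 299.7 normalised counts in control to 220.4. It was -0.56 ± 0.38 for mt:srRNA (14131 to 14916, minus strand; adjusted p 0.872), from 337 to 229. The 95% interval was -0.78 to -0.10 for mt:lrRNA and -1.31 to 0.19 for mt:srRNA, and the values differed by -0.12 (-0.94 to 0.71). Relative to 2S, the difference was -0.51 (-1.22 to 0.21) for mt:lrRNA and -0.62 (-1.60 to 0.36) for mt:srRNA. Against mt:lrRNA, pre-rRNA:CR45856 was lower by -1.14 (-1.74 to -0.54), so it stood below both 2SrRNA:CR45864 and mt:lrRNA.

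The mitochondrial rRNA genes abut tRNA genes on the same strand, and the tRNAs mark where the joint transcript is cut. With 0 bases between neighbours, mt:tRNA:Leu-TAG precedes mt:lrRNA on the map, and mt:tRNA:Val-TAC lies between mt:lrRNA and mt:srRNA. In the authors' deposited table mt:tRNA:Val-TAC had a log2 fold change of 0.37 ± 0.54 (DESeq2 adjusted p 0.758) at a mean count of 11.3. The value for mt:tRNA:Leu-TAG was -0.60 ± 0.85 at a mean count of 5.76. Of all 22 mitochondrial tRNA genes 18 were above 0, beside 153 of the 299 tRNA genes with reads. Of the 12 with an adjusted p, 3 were called. Over all tRNA genes with an adjusted p, 32 of 149 (21.5%) were called. The 3 mitochondrial calls were mt:tRNA:Ser-GCT at 0.46, mt:tRNA:Lys-CTT at 0.66 and mt:tRNA:Arg-TCG at 0.70, all higher. The rRNA and tRNA classes have separate scales, so the opposite signs of mitochondrial rRNA and tRNA are no measured difference between them.

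**Figure D4:**
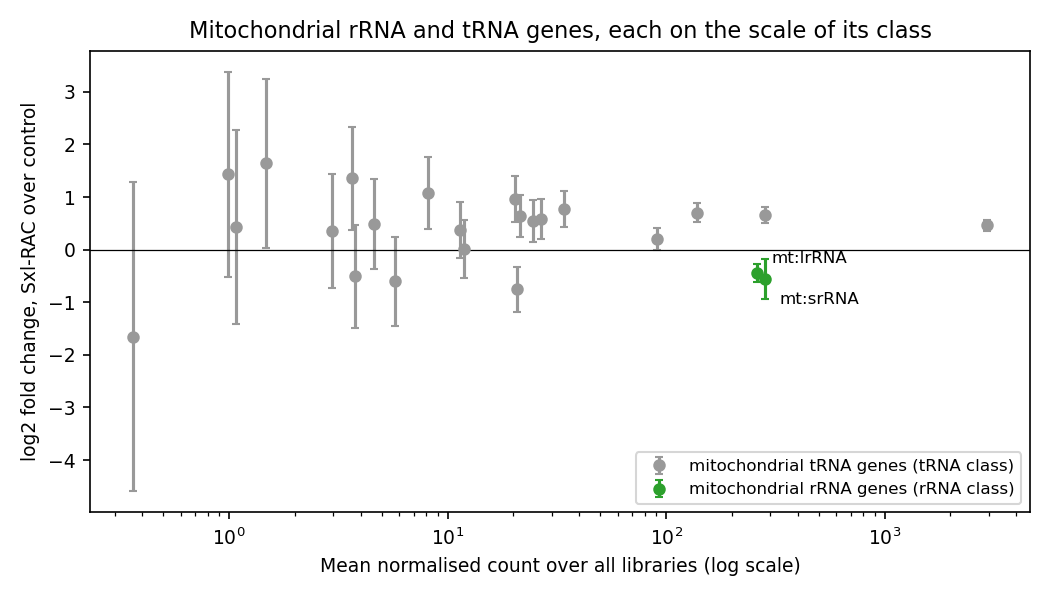
Log2 fold change of Sxl-RAC over control (vertical axis) against the mean normalised count on a log scale (horizontal axis) for the 22 mitochondrial tRNA genes (grey) and both mitochondrial rRNA genes (green), with the authors' standard errors. The rRNA genes lie at -0.44 and -0.56 on the scale of the rRNA class, and 18 of the 22 tRNA genes lie above 0 on the scale of the tRNA class.

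The spacer between 18S and 5.8S rRNA also encodes a microRNA, mir-10404, whose copies lie in the ribosomal units. Of 5 listed copies, 2 lie inside a listed precursor on the same strand, mir-10404-1 in pre-rRNA:CR45845 and mir-10404-2 in pre-rRNA:CR45847. Unlike the rRNA genes inside a precursor, these 2 had reads, at mean counts of 3.07 and 1.21. Mean counts of the copies ran from 1.21 to 3.47 in the authors' deposited table, and none had an adjusted p. On the scale of the microRNA class, 4 of the 5 were below 0, beside 89 of the 168 microRNA genes with reads. The copy nearest to 2SrRNA:CR45864, mir-10404-4, was at -1.21 ± 1.23, and mir-10404-1 at -0.55 ± 1.22. At so few reads no difference in this microRNA was detectable.

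Small nucleolar RNAs guide the chemical modification of 18S and 28S rRNA, and a few of them guide the cutting of the precursor. Of 171 guides with reads, 3 were called in the authors' deposited table, 1 higher and 2 lower, and all 3 guide methylation of 18S. Over the 248 snoRNA genes with an adjusted p, 1.21% were called. Within that list of 19, snoRNA:Me18S-A425 was lower, at -0.67 ± 0.14 (DESeq2 adjusted p 0.000353). Also lower was snoRNA:Me18S-A1576, at -0.73 ± 0.18 (adjusted p 0.00793), and snoRNA:Me18S-A1806 was higher, at 0.58 ± 0.16 (adjusted p 0.0145). The most abundant of the list, snoRNA:Me18S-G1620, was at -0.18 ± 0.12.

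The guides of other modifications held no call. None of 50 guides of 28S methylation passed DESeq2's adjusted threshold and 3 had an unadjusted p under 0.05, with a median of 0.19 over the list. The 2 most abundant, snoRNA:Me28S-A2564 and snoRNA:Me28S-C2645b, were at -0.36 and -0.18. None of 43 guides of 18S pseudouridylation and none of 59 of 28S pseudouridylation was called by DESeq2, with 0 and 1 at an unadjusted p under 0.05 and medians of 0.11 and 0.05. Their most abundant genes were snoRNA:Psi18S-110 at 0.60, snoRNA:Psi18S-1377a at 0.17, snoRNA:Psi28S-3342 at 0.19 and snoRNA:Psi28S-2622 at -0.40. Over all 248 snoRNA genes with reads the median log2 fold change was 0.05, and 4.84% had an unadjusted p under 0.05.

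RNAs that act in cutting the precursor were not called either. U3, which in yeast is needed for the early cuts that release 18S rRNA, was below 0 in all 3 genes: snoRNA:U3:9B at -0.50 ± 0.21, snoRNA:U3:54Ab at -0.34 ± 0.17 and snoRNA:U3:54Aa at -0.26 ± 0.16, and DESeq2's adjusted p was 0.598 or more. Their mean counts were 102, 333 and 341. Of the 248 snoRNA genes with reads, 111 were below 0. U14, known in yeast for its part in the same cuts, was at 0.27 in snoRNA:U14:30Ea and 0.26 in snoRNA:U14:30Eb. The RNA of RNase MRP, which in yeast cuts the spacer between 18S and 5.8S, was at 0.51 ± 0.74 at a mean count of 10.7. Of the 9 processing RNAs, which by their symbols include 3 genes of the methylation guide U31, 0 were called by DESeq2 and 1 had an unadjusted p under 0.05. Among snoRNA genes with reads, 4.84% had such an unadjusted p. All these values are on the scale of the snoRNA class or, for RNase MRP, of the other noncoding RNAs.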

How the data were processed

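Small RNA libraries of 3 Sxl-RAC samples were compared with controls by the authors. Per the submitters' processing notes, Trim Galore 0.6.7, Bowtie2 2.5.3, featureCounts 2.0.8 and DESeq2 (listed as 2.11.40.8) were used. Their parameters, the genome build, the annotation and strand use are not given in the sources used here. Per the file headers, the deposited base mean is a signal, counts divided by size factors and averaged over libraries. The deposited log2 fold change and its standard error are in log2 units, the deposited Wald score is their ratio (equal within 2.32e-08), and the deposited p-value and adjusted p-value are the authors'. The direction, Sxl-RAC over control, follows the file's name.

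Identifiers were matched to Ensembl release 115, build BDGP6.54 (3545 of 3546), whose coordinates, 1-based, are used. Intervals at 95% are normal intervals from the authors' standard errors. Implied arm levels assume 3 libraries per arm. Libraries were counted as the single-read values that are no sum of up to 4 smaller ones, within 5e-08. Counting errors assume equal depth and cover counting error only. Python 3.11.15, numpy 2.4.6, pandas 2.3.3, scipy 1.17.1 and matplotlib 3.10.9 were used, and adjustment and re-centring were tested on simulated data. Every gene meeting the rule is named. Of each pathway list, chosen by symbol, the called genes and the 2 with the highest mean count are named, and all of the processing RNAs but U31. Neighbouring tRNAs and mir-10404 were added after the data were seen. The genes and lists were chosen with earlier results of these data known. No genome sequence was used.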

Additional observations from a re-analysis of the deposited data

How the results depend on the processing

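The count of 1 called gene among the 7 was the same at an adjusted p under 0.1, with 1 adjustment over all genes with a p-value, over all rRNA genes and over genes whose mean count reached 10. The adjustment over all rRNA genes repeats the authors' own, so its result was fixed in advance. Under the adjustment over genes whose mean count reached 10, pre-rRNA:CR45846 came to an adjusted p of 0.0593 and mt:lrRNA to 0.0816. Re-centring on all genes with reads, on 5S rRNA or on 2S rRNA subtracted only -0.04, -0.01 and 0.06 and changed no direction and no call, with pre-rRNA:CR45856 between -1.54 and -1.65. The first of these medians pools classes with separate scales, so it is no common scale, and shifts this small say little about stability. Added after seeing the data, re-centring on 5S genes with a mean count under 20 moved pre-rRNA:CR45856 to -1.25 (adjusted p 6.65e-05, recomputed from the authors' DESeq2 standard errors). The same re-centring moved pre-rRNA:CR45846 to -0.40, pre-rRNA:CR45845 to -0.47 and pre-rRNA:CR45847 to -0.86. It moved mt:lrRNA to -0.11, mt:srRNA to -0.23 and 2SrRNA:CR45864 to 0.40, with no call gained or lost. The excess of the median of the 7 genes over that of 5S was -0.72, or -0.73 from a mean count of 10 and -0.40 against low-count 5S. The 5S genes largely set the scale of the class, so the median of all of them is no independent reference. With mt:lrRNA as the reference in place of 2S, also chosen after seeing the data, the difference was -1.14 for pre-rRNA:CR45856, -0.29 for pre-rRNA:CR45846, -0.75 for pre-rRNA:CR45847, whose interval then held 0 (-1.78 to 0.29), and -0.12 for mt:srRNA, which follows from the lower value of that reference. Using 5.8S rRNA as the reference was not possible, since no 5.8S gene has reads. No paired analysis was possible because the table gives no values per library, and no library could be left out for the same reason. At mean counts of 10.9 and 11.3, counting error alone would give a standard error of 0.37 for pre-rRNA:CR45845, where the authors' is 0.55, and 0.38 for pre-rRNA:CR45847, where it is 0.50.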
